A study of Mus musculus with 11 samples.

Results

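The comparison described here is that of peritoneal macrophages from PBS-treated mice that lack RELMα (RαTd/Td) with those from PBS-treated wild-type mice (Rα+/+), chosen by the treatment and genotype in the sample labels. It rests on 4 of the 11 mice with values, 2 Rα+/+ (mice 1 and 2) and 2 RαTd/Td (mice 3 and 4), and the other 7 mice, treated with IL-4 complexed to an antibody (IL-4c), were used for the estimate of spread and for 1 contrast. All mice were female, 6-8 week old and of the strain labelled C57BI/6. In RαTd/Td mice part of Retnla, the gene for RELMα, is replaced on both alleles by the reporter TdTomato. The allele was made with a cre driven by the CMV promoter and is constitutive, so RELMα was missing from every cell of the animal and throughout life, and the comparison is not limited to macrophages. PBS was injected intraperitoneally on days 0 and 2, and cells positive for CD11b and F4/80 were sorted on day 4. The question was which transcripts of resting macrophages differ with the loss of RELMα. Of the 754 genes on the Nanostring myeloid panel, which counts transcripts with barcoded probes and without amplification, 445 were tested.

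RELMα is a small protein that macrophages secrete, best known as a product of cells stimulated with IL-4 or IL-13. The resting peritoneal cavity holds mainly large peritoneal macrophages, a long-lived resident population that depends on the transcription factor GATA6 and carries little MHC class II on its surface, beside a smaller population derived from monocytes, in which MHC class II is high. MHC class II molecules present peptides from engulfed material to CD4+ T cells, and MHC class I molecules present peptides from the cell's own proteins to CD8+ T cells. Transcription of both is raised by interferon-γ.

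Values are normalized counts, scaled by the authors to housekeeping genes, and low values were set to a floor of 30. Because each mouse had its own scaling factor, the lowest level that could be measured above this floor was 48.2, 30.8, 56.1 and 56.3 normalized counts in mice 1 to 4. Mouse 2 had more counts over the genes above the floor, 551546 against 268858 to 297254 in the other 3 mice. Its spiked-in positive controls were not higher, with a geometric mean of 874 counts against 1021, 903 and 853 in mice 1, 3 and 4. The reason for its higher counts was not tested. Between 355 and 389 genes per mouse were above the floor. All 9 markers of large peritoneal macrophages on the panel were above the floor in each of the 4 mice, and their summed level was 95847 and 79563 normalized counts in Rα+/+ mice and 90928 and 88356 in RαTd/Td mice. Most of this sum was Fn1, at 65106 and 50339 against 61849 and 58903. Of the 9, 3 had both RαTd/Td mice above both Rα+/+ mice (35.5% of all genes) and 2 had them below (12.6%). The sum therefore does not measure the share of these cells. Both markers of T and NK cells and all 5 of eosinophils were at the floor in the 4 mice, as were 6 of 8 neutrophil, 5 of 7 mast cell and basophil and 4 of 5 dendritic cell markers. The samples are bulk lysates, in which fewer cells of a type and less RNA per cell cannot be told apart.

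Retnla was at 4631 and 4141 normalized counts in the Rα+/+ mice and at the floor in both RαTd/Td mice. The level in RαTd/Td macrophages was thus at least 77.9-fold lower (limma adjusted p = 1.58e-09), which fits the genotype labels of all 4 mice.

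Apart from Retnla, macrophages lacking RELMα had more transcript of 5 of 8 MHC class II genes, of 7 of 11 genes of MHC class I and peptide loading, of 4 of 12 immediate early genes, among them Jun and Atf3, and of the chemokine receptor Cxcr4. They had less of the actin-bundling protein Fscn1, of arginase 1 (Arg1) and of the formyl peptide receptor Fpr1. A gene was called when its adjusted p from limma was 0.05 or less. Of the 445 genes, 43 were called (9.66%), 36 higher in RαTd/Td (8.09%) and 7 lower (1.57%), and 14 of the 36 were higher by more than 1 on the log2 scale. At an unadjusted p of 0.05 the counts were 86 higher and 16 lower. Both RαTd/Td mice were above both Rα+/+ mice for 158 genes (35.5%) and below them for 56 (12.6%), while the groups overlapped for 231. The median difference over all genes tested was 0.10 on the log2 scale.

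**Figure D1:**
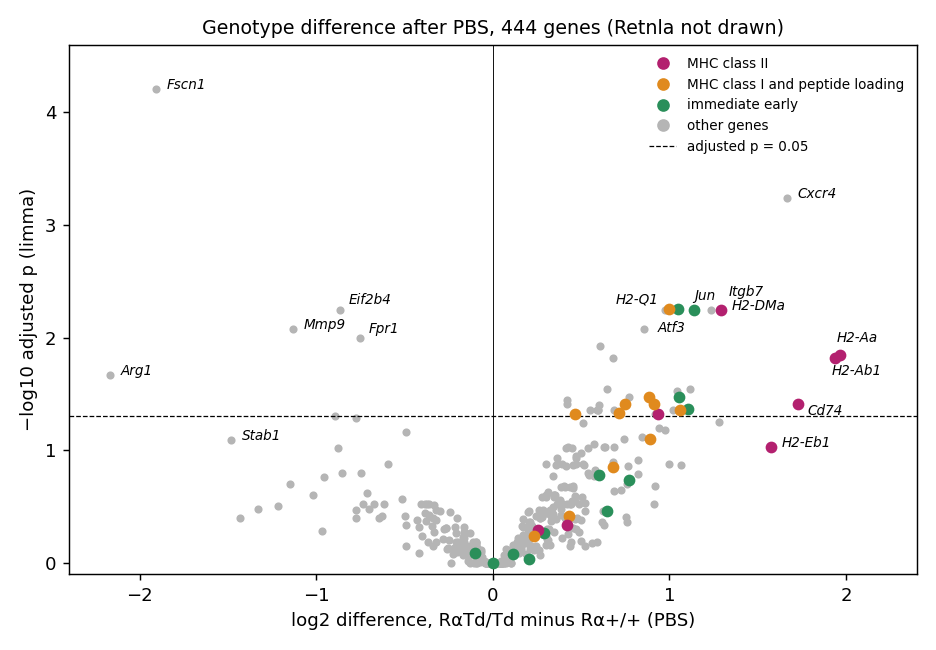
Each point is 1 of the tested genes other than Retnla, with its log2 difference between PBS-treated RαTd/Td and Rα+/+ mice (positive is higher in RαTd/Td) against −log10 of its limma adjusted p, and the dashed line is an adjusted p of 0.05. The called genes lie mainly to the right, 36 of 43 counting Retnla, with 5 MHC class II genes (purple) and 7 MHC class I and peptide loading genes (orange) among them.

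These calls depended on single mice. The smallest two-sided p that an exact permutation of 2 against 2 mice can give is 0.333, so no single gene can be tested on these 4 mice alone in that way, and limma took its estimate of spread from all 11. With mouse 4 left out, 3 genes were called, namely Retnla, Fscn1 and Cxcr4, and of the 43 these were also the 3 that were called whichever of the 4 mice was left out. The count was 73 without mouse 1, 19 without mouse 2 and 25 without mouse 3. Fitted on the 4 PBS-treated mice alone, 3 genes were called, Retnla, Mx1 and Eif2b4, each of them at the floor in both mice of 1 genotype. Fscn1 (adjusted p = 0.153) and Cxcr4 (adjusted p = 0.117) were not called by limma in that fit, so Retnla was the 1 gene called both there and with each of the 4 mice left out, and every other call below is subject to these limits.

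The MHC class II genes had the highest median of the lists examined. Of 8 tested, 5 were called higher and 0 lower, where 8.09% of all genes were called higher. Both RαTd/Td mice were above both Rα+/+ mice for 7 of them, against 35.5% of all genes. The median difference was 1.43 against 0.10 for all genes. H2-Aa, the α chain of the class II molecule I-A, was at 1724 and 1933 normalized counts in Rα+/+ mice and at 6135 and 8321 in RαTd/Td mice. The groups lay far apart, with a log2 difference of 1.97 ± 0.38 (SE; 95% interval 1.12 to 2.82, adjusted p = 0.0144). H2-Ab1, the β chain of I-A, was at 846 and 1084 against 3048 and 4434, a log2 difference of 1.94 ± 0.38 (adjusted p = 0.0151). Its highest value in either group was again that of mouse 4. Cd74, the invariant chain that escorts class II molecules to the endosome, was at 3963 and 4865 normalized counts against 12683 and 16768 (log2 difference 1.73 ± 0.42, adjusted p = 0.0388). H2-DMa and H2-DMb1 encode the chaperone that exchanges the invariant chain peptide for antigen. H2-DMa was at 199 and 154 against 392 and 471 (1.29 ± 0.21, adjusted p = 0.00565), and H2-DMb1 was at 101 and 96.7 against 224 and 162 (0.94 ± 0.25, adjusted p = 0.0474). H2-Eb1, the β chain of the second class II molecule, had separate groups at 703 and 927 against 2123 and 2734 but missed the threshold (1.58 ± 0.51, adjusted p = 0.0929). H2-DMb2 and H2-Ob, which were not called, differed by 0.42 and 0.25. No MHC class II gene was called without mouse 2 or without mouse 4, while the median of the list was between 1.28 and 1.59 with any mouse left out.

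Cells other than macrophages also carry MHC class II. The B cell marker Ms4a1, the 1 of 2 B cell markers on the panel that was above the floor, was at 105 and 226 normalized counts in Rα+/+ mice and at 192 and 242 in RαTd/Td mice, and Fcer2a was at the floor in all 4. Of the 6 markers of small peritoneal macrophages and monocytes, 5 were above the floor in some mouse, and their sum was 952 and 1270 in Rα+/+ mice against 1205 and 1142 in RαTd/Td mice. Both sums overlapped between genotypes. Single members of the small macrophage and monocyte list went both ways, however. Of the 5 tested, 2 had both RαTd/Td mice above both Rα+/+ mice (35.5% of all genes) and 1 had them below (12.6%). In a list of this size such counts do not set it apart from all genes. Irf4 was at 143 and 100 against 174 and 171, and Mrc1 was at 162 and 203 against 123 and 135. For dendritic cells the sum was 34.5 in mouse 2 and nothing was above the floor in the other 3 mice. The part of these cells in the class II values was not tested further.

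Promoters of this family share a set of short elements next to the start site, the most constant of them the Y box, which holds an inverted CCAAT sequence (GATTGG). Start regions of the 6 class II genes that matched in the RefSeq promoter sequences of the build GRCm38.p6, each 300 bases long, were searched on both strands for GATTGG and for the longer CTGATTGG, which contains it. GATTGG was present in 6 of 6, against 16.1% of 32851 promoters of that length, and CTGATTGG in 2 of 6, against 4.1%. The 6 include H2-Eb1, H2-DMb2 and H2-Ob, which were not called, so the element was not limited to called genes. In H2-DMa, which has more than 1 annotated start, the match was in 1 of its promoters and lay 199 bases before the start, away from the usual place of the element. Of the 8 matched genes of the MHC class I and peptide loading list described further on, 5 held GATTGG and 5 held CTGATTGG. The start regions of the neighbouring genes Tap1 and Psmb9 overlap, and their matches are the same bases, counted once for each gene. The stretches from 130 bases before to 20 bases after the start are shown for a chain of the class II molecule and for its peptide-loading chaperone, both called higher, to set the element beside the values above, with GATTGG in capitals. They lie on chromosome 17 in the MHC, H2-Aa at chr17:34287804-34287953 on the minus strand and H2-DMb1 at chr17:34153061-34153210 on the plus strand.
H2-Aa: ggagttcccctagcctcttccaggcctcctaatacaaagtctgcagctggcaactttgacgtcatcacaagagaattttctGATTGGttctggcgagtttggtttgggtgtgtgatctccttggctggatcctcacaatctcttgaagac
H2-DMb1: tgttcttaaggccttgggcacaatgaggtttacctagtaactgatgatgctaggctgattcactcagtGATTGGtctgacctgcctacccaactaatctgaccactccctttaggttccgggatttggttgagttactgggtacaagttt
The element began 49 bases before the start in H2-Aa and 62 bases before it in H2-DMb1. A match of these letters is a description of the sequence and does not show that a factor bound there.

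Genes of MHC class I and of peptide loading were higher by a smaller amount. Of 11 tested, 7 were called higher and 0 lower, where 8.09% of all genes were called higher. Both RαTd/Td mice were above both Rα+/+ mice for 10 of them, against 35.5% of all genes, and the median difference was 0.75. The heavy chain genes H2-K1 and H2-D1 were at 7042 and 4996 against 11718 and 13100 normalized counts (log2 difference 1.06 ± 0.27, adjusted p = 0.0436) and at 8281 and 5977 against 12623 and 13405 (0.89 ± 0.20, adjusted p = 0.0339). In both genes the 2 RαTd/Td mice were close to each other and mouse 2 was the lowest. The nonclassical heavy chains H2-Q1 and H2-T23 differed by 1.00 ± 0.15 (adjusted p = 0.0056) and 0.91 ± 0.22 (adjusted p = 0.0388). H2-Q1 was at 223 and 189 against 398 and 424 normalized counts. These heavy chain genes are near-identical copies over much of their length, so a probe may take transcripts of more than 1 of them. Among the genes that prepare and load the peptide, tapasin (Tapbp, 0.72) and the immunoproteasome subunits Psmb8 (0.47) and Psmb9 (0.75) were called. Psmb9 was at 164 and 158 against 293 and 252, with both pairs close together. The proteasome activator Psme2, which is on no list, was at 878 and 844 against 1168 and 1136 (0.42 ± 0.10, adjusted p = 0.0356). The peptide transporter Tap1 was at 199 and 241 against 434 and 383 and was not called (0.89 ± 0.27, adjusted p = 0.0788), nor were Tap2, H2-M3 and Cd1d1. The number of class I genes called was 0 without mouse 4 and 1 without mouse 2 or mouse 3.

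Only 4 of the 8 interferon response genes on the panel were above the filter. Of these, 2 were called higher, against 8.09% of all genes tested. Mx1, an interferon-induced GTPase, was at the floor in both Rα+/+ mice and at 59.8 and 60.1 in RαTd/Td mice, at least 1.56-fold higher (adjusted p = 0.00565). Those values stood just above the lowest level measurable in mice 3 and 4, and with 1 common floor of 56.3 the log2 difference of Mx1 was 0.09. Irf7 was at 94.9 and 72.0 against 161 and 122 (0.75 ± 0.48, adjusted p = 0.388), and Isg15 was above the floor in mouse 2 and mouse 3 alone. Irf1, an interferon-induced transcription factor, was at 228 and 180 against 387 and 413 and missed the threshold (0.98 ± 0.29, adjusted p = 0.0661). Among the cytokine signalling genes, 1 of 22 was called, Stat3 at 257 and 262 against 344 and 353 (0.42 ± 0.10, adjusted p = 0.0388).

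Immediate early genes are transcribed within minutes of a stimulus, without new protein synthesis. Of 12 tested, 4 were called higher and 0 lower, where 8.09% of all genes were called higher. Both RαTd/Td mice were above both Rα+/+ mice for 7 of them, against 35.5% of all genes, and the median difference was 0.62. Jun, a subunit of the transcription factor AP-1, was at 267 and 243 normalized counts in Rα+/+ mice and 533 and 595 in RαTd/Td mice (log2 difference 1.14 ± 0.18, adjusted p = 0.00565). Atf3, a stress-induced transcription factor, was at 424 and 309 against 727 and 777 (1.05 ± 0.15, adjusted p = 0.0056). The antiproliferative gene Btg2 differed by 1.05 ± 0.25 (adjusted p = 0.0339). Fosb, another AP-1 subunit, was at the floor in mouse 1, at 56.2 in mouse 2 and at 97.2 and 82.6 in RαTd/Td mice (1.11 ± 0.28, adjusted p = 0.0431). With the common floor the difference of Fosb was 0.66. Nr4a1, Klf4 and Ier3 had separate groups but were not called, while the dual-specificity phosphatases Dusp1 (0.29) and Dusp6 (0.21), Myc and the NF-κB inhibitor Nfkbia (-0.10) overlapped. Without mouse 4 the count was 0 of 12, and without mouse 3 it was 2.

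**Figure D2:**
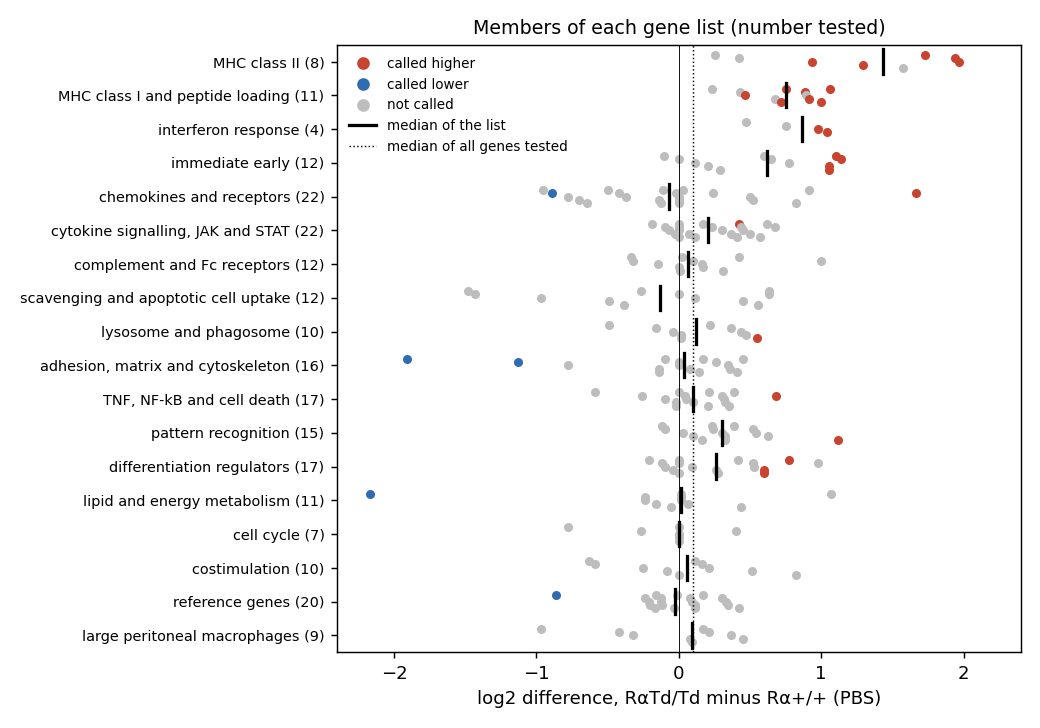
Each point is a tested gene of the list named on the left, placed by its log2 difference between PBS-treated RαTd/Td and Rα+/+ mice, and the vertical bars are medians of the lists. The MHC class II list has the highest median (1.43), while scavenging and apoptotic cell uptake (-0.13) has the lowest.

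The remaining higher genes belonged to several functions. Cxcr4, the receptor for the chemokine CXCL12, was at the floor in mouse 1, at 36.8 in mouse 2 and at 103 and 113 normalized counts in the RαTd/Td mice (log2 difference 1.67 ± 0.18, adjusted p = 5.79e-04). With the common floor the difference was 0.92 and was still called. The integrin subunit Itgb7 was at 481 and 383 against 927 and 1102 (1.23 ± 0.20, adjusted p = 0.00565), with no overlap. Hdc, which makes histamine, was at 195 and 109 against 275 and 319 (1.02 ± 0.27, adjusted p = 0.0436). Hdc is also on the mast cell and basophil list, of which 5 of 7 genes were at the floor in all 4 mice. The myeloid receptor Clec5a was at 56.3 in mouse 1, at the floor in mouse 2 and at 107 and 77.0 in RαTd/Td mice (1.12 ± 0.25, adjusted p = 0.0287). Its difference with the common floor was 0.68.

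Several regulators of transcription and differentiation were called with differences below 1. Id1 and Id2, inhibitors of basic helix-loop-helix factors, differed by 0.86 ± 0.15 (adjusted p = 0.00847) and 0.77 ± 0.18 (adjusted p = 0.0339). Id2 was at 1109 and 1065 against 2013 and 1715 normalized counts. Skil (0.61) and Klf10 (0.65) act in TGF-β signalling, and Nfatc1 (0.60) and Batf (0.60) are transcription factors of lymphoid and myeloid cells. Skil was at 54.7 and 45.7 against 74.8 and 78.9, so that its levels in Rα+/+ mice were near the lowest measurable. Nampt, of NAD synthesis, was at 320 and 265 against 435 and 501 (0.68 ± 0.13, adjusted p = 0.0151). The others were the apoptosis inhibitor Birc3 (0.69), the kinase Pim2 (0.59), the receptor Fgfr1 (0.59), progranulin (Grn, 0.55) and Rictor (0.92), a subunit of mTORC2. Rictor was at the floor in mouse 1 and at 35.3 in mouse 2, against 69.1 and 56.3, and its difference under the common floor was 0.15. Under that floor the differences of Pim2, Skil and Id1 were also smaller, at 0.23, 0.44 and 0.57.

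**Figure D3:**
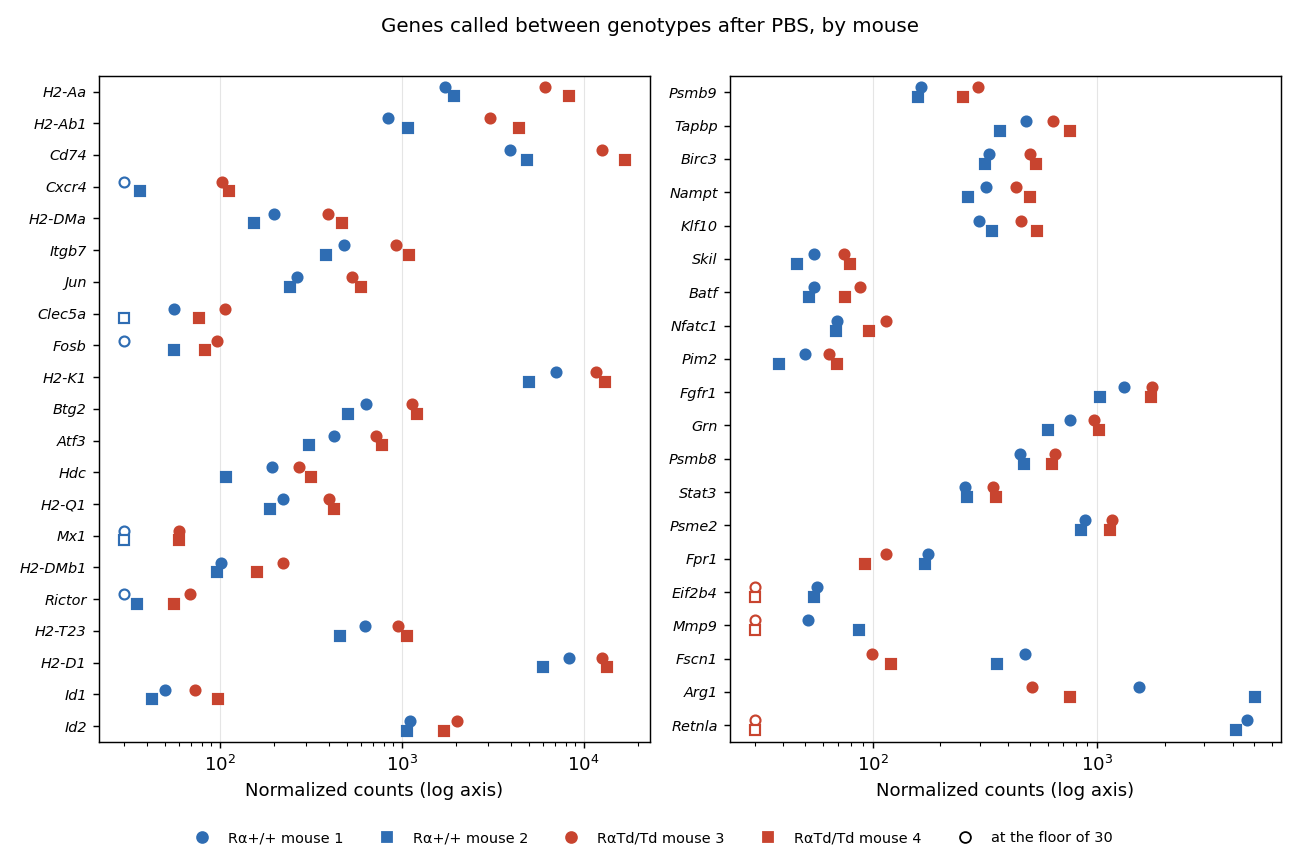
Normalized counts (log axis) of the called genes described in the text in each PBS-treated mouse, with Rα+/+ mice in blue, RαTd/Td mice in red and values at the floor of 30 drawn hollow. Genes are ordered from the most positive log2 difference (H2-Aa, 1.97) to the most negative (Retnla), and 8 of the called genes have at least 1 mouse at the floor.

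Several genes other than Retnla were called lower in RαTd/Td macrophages. Fscn1, which bundles actin filaments, was at 474 and 358 normalized counts in Rα+/+ mice and 99.0 and 120 in RαTd/Td mice. The groups did not overlap, and the log2 difference was -1.91 ± 0.15 (95% interval -2.24 to -1.57, limma adjusted p = 6.16e-05). The spread was fitted over all 11 mice, and Fscn1 was at or near the floor in every IL-4c-treated mouse. Values held at the floor hardly vary, which narrows this error and interval. Arg1, which splits arginine and is, like Retnla, a product of IL-4-stimulated macrophages, was at 1532 in mouse 1 and 5062 in mouse 2, and at 510 and 753 in the RαTd/Td mice (-2.17 ± 0.45, adjusted p = 0.0215). The ratio between the Rα+/+ mice was larger than that between mouse 1 and mouse 4, and the call was lost without mouse 2, mouse 3 or mouse 4. Fpr1, a receptor for bacterial peptides, was at 175 and 171 against 114 and 92.0 (-0.75 ± 0.14, adjusted p = 0.0101). The gelatinase Mmp9 was at 51.5 and 87.0 normalized counts in Rα+/+ mice and at the floor in both RαTd/Td mice, at least 1.19-fold lower (adjusted p = 0.00847). The translation factor subunit Eif2b4, which is on the list of reference genes, was at 56.3 and 54.7 against the floor in both RαTd/Td mice (adjusted p = 0.00565). Since the floor of mice 3 and 4 left out levels up to 56.1 and 56.3, the groups of Mmp9 and Eif2b4 overlapped, and with the common floor their log2 differences were -0.31 and 0.00.

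Receptors for scavenging and for the uptake of dying cells were not called in either direction (0 of 12, where 9.66% of all genes were called). Of these, 6 had both RαTd/Td mice below both Rα+/+ mice (12.6% of all genes) and 3 had them above (35.5%). Stab1, a scavenger receptor, was at 474 and 242 normalized counts in Rα+/+ mice and at 114 and 128 in RαTd/Td mice (log2 difference -1.48 ± 0.46, adjusted p = 0.0811). Cd163, the haemoglobin scavenger receptor, was at 230 and 278 against 105 and 82.6 (-1.43 ± 0.94, adjusted p = 0.401). Marco, a class A scavenger receptor, was at 2766 and 3097 against 1687 and 1326 (-0.97 ± 0.79, adjusted p = 0.521). For the last 2 genes the 4 values were well separated, and the wide errors come from the spread fitted over all 11 mice. Mertk, a receptor for dying cells, was higher in both RαTd/Td mice, at 736 and 749 against 532 and 429 (0.64 ± 0.21, adjusted p = 0.0929). Timd4, a receptor for phosphatidylserine, was at 3970 and 2567 against 4130 and 4623 (0.45 ± 0.20, adjusted p = 0.217).

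Among 22 chemokines and receptors, Cxcr4 was called higher. The platelet factor gene Pf4 was at 6157 and 7919 normalized counts against 4089 and 3162 and was not called (-0.96 ± 0.39, adjusted p = 0.173). The differences of Ccl6 (-0.70), Cxcl13 (-0.42) and Cxcl16 (0.91) were not called either, and Cxcl13 overlapped between genotypes. Complement and Fc receptor genes (0 of 12), costimulation genes (0 of 10) and cell cycle genes (0 of 7) were not called, with medians of 0.06, 0.06 and 0. In lists of this size a count of 0 is close to the 9.66% called over all genes and does not set them apart. The cell cycle genes Ccnb2, Cdc20 and Kif20a were at the floor in all 4 mice and passed the filter through their values after IL-4c. Their difference of 0 was therefore set by the floor, and no genotype difference after PBS could have been measured for them. The Fc receptor gene Fcgr4 was at 585 and 771 against 1179 and 1534 (1.00 ± 0.36, adjusted p = 0.132), and the costimulatory ligand Cd86 was at 270 and 158 against 417 and 323 (0.82 ± 0.29, adjusted p = 0.123). Hgf, a growth factor, missed the threshold at 96.5 and 66.7 against 176 and 220 (1.28 ± 0.36, adjusted p = 0.0564). Of the 9 markers of large peritoneal macrophages none was called, and Gata6 was at 712 and 503 against 624 and 654 normalized counts.

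Other floors and scalings moved the size of the differences more than their side. With each mouse centred on its median gene, the median difference over all genes moved from 0.10 to 0, and 17 genes were called higher and 9 lower. The share of calls that were higher was then 65.4%, against 83.7% in the deposited scaling, 65.2% after quantile normalization and 75% after scaling to reference genes. In all, 15 genes were called in the deposited values, under the common floor and under these 3 rescalings. Among them were H2-Aa, H2-Ab1, H2-DMa and H2-Q1 of antigen presentation, Jun, Atf3, Cxcr4, Itgb7, Id1, Nampt and Skil, which were higher, and Fscn1, Fpr1 and Retnla, which were lower. Of the 15, 12 were higher and 3 lower.

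**Figure D4:**
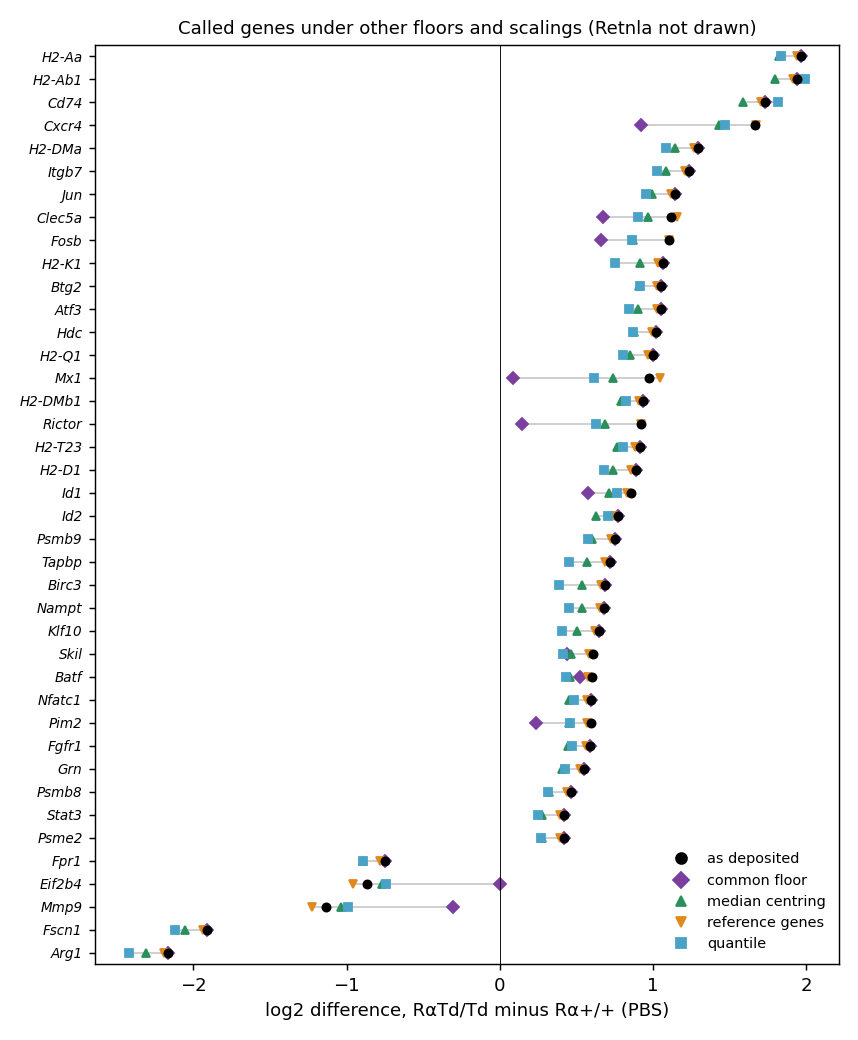
Log2 differences of the called genes described in the text, other than Retnla, between PBS-treated RαTd/Td and Rα+/+ mice in the deposited values (black), with 1 common floor of 56.3 normalized counts (purple) and after 3 rescalings. Genes near the floor move most, such as Mx1 (0.98 to 0.09) and Eif2b4 (-0.87 to 0.00), while H2-Aa and Fscn1 stay far from 0 throughout.

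The genotype difference after PBS was also set against that after IL-4c, which came from 7 other mice, 3 Rα+/+ and 4 RαTd/Td. A further IL-4c-treated Rα+/+ mouse, which clustered with the PBS-treated mice, was removed by the authors as an outlier. That mouse has no values here, so neither this contrast nor the shared spread includes it. The lanes of the 2 treatments also differed in their spiked-in positive controls, with geometric means from 853 to 1021 counts for PBS and from 301 to 623 for IL-4c, and the part of this in the contrast was not tested. After IL-4c, 12 genes were called between genotypes (2.7%), and of the 42 genes other than Retnla called after PBS, 2 were among them. These were H2-Aa and H2-Ab1, with log2 differences of 1.31 (adjusted p = 0.0474) and 1.36 (adjusted p = 0.0421). H2-Aa was at 1034 to 1807 normalized counts in IL-4c-treated Rα+/+ mice and 1928 to 4431 in RαTd/Td mice, again without overlap. Of the 42 genes, 30 lay on the same side after IL-4c, 10 on the opposite side and 2 at 0. All 36 higher genes had a smaller log2 difference after IL-4c than after PBS, a direction favoured by their having been called after PBS.

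The difference between the genotype differences passed the test for 9 genes (2.02%), 7 of them among these 42. Jun and Atf3 were higher in RαTd/Td mice after PBS, whereas after IL-4c their differences were -0.08 and -0.14 (adjusted p of the change = 0.022 and 0.0154). Batf turned from 0.60 to -0.34 (adjusted p of the change = 0.0345), and Cxcr4 was 1.67 after PBS and 0.40 after IL-4c (adjusted p of the change = 0.0193). Fscn1 was at the floor in 6 of 7 IL-4c-treated mice and at 32.3 in 1, and Fpr1 was likewise at the floor in 6 and at 35.6 in 1, so no genotype difference could have been measured there. Arg1, between 23131 and 35072 normalized counts in all 7 IL-4c-treated mice, differed by -0.11, but the change from -2.17 was not called (adjusted p = 0.1).

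**Figure D5:**
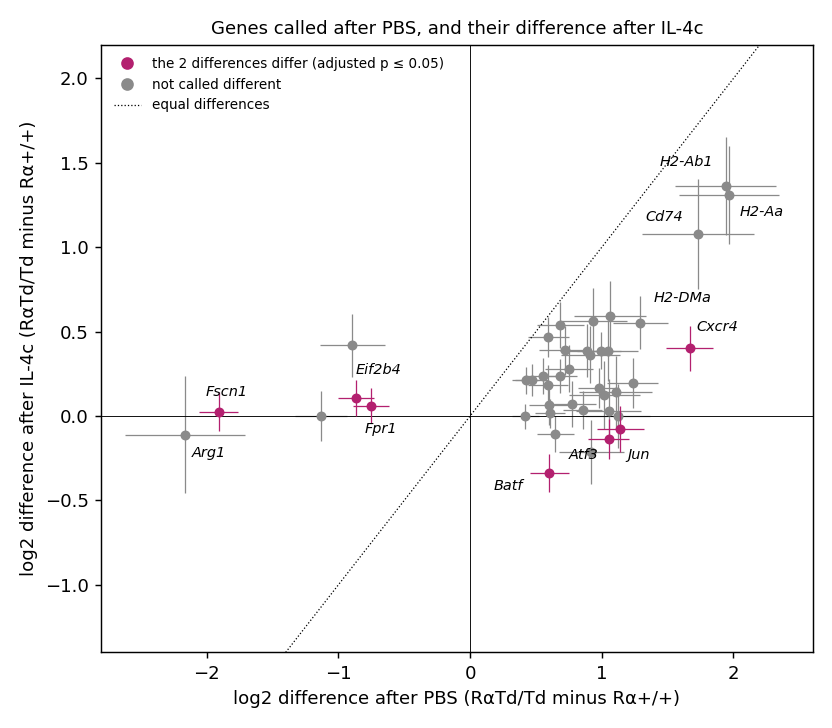
Log2 difference between RαTd/Td and Rα+/+ mice after PBS (horizontal) and after IL-4c (vertical) for the 42 genes other than Retnla called after PBS, with bars of 1 standard error. The MHC class II genes H2-Aa, H2-Ab1 and Cd74 stay highest after IL-4c, and the 7 purple genes are those whose differences passed the test of the change.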

How the data were processed

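Macrophages sorted from 11 mice were lysed and measured on the Nanostring Myeloid Innate Immunity panel. The authors normalized raw counts to 4 housekeeping genes and deposited linear signal in normalized counts, with low values set to 30. The version of their software is not given in the sources used here. Of 754 genes, the 445 with a mean above 30 over all mice were tested, and 14 control probes were left out. The fit used log2 of the value plus 1 in limma (version 3.58.1, under R 4.3.3), where each of the 4 groups of treatment and genotype had its own coefficient and all 11 mice shared the spread. Benjamini-Hochberg adjustment ran over all genes tested, with genes called at an adjusted p up to 0.05. Errors of log2 differences are standard errors. Each sample is a separate mouse. Lower limits of a fold set a group at the floor to the lowest level measurable there. The counts over the genes above the floor were recovered from the scaling factor of each mouse, and intervals cover the fitted spread only. For genes mostly at the floor after IL-4c, among them Fscn1, Fpr1, Mmp9, Clec5a, Id1, Skil and Fosb, the floor narrows that spread. Errors, intervals and adjusted p of such genes tend to be too small. On simulated data for this comparison, the fit recovered 80.6% of genes changed by 1 (log2) and 43.1% of those changed by 0.5, with 2.78% false calls. In these simulations 200 of the 445 genes were changed, the noise was normal and no floor was applied. They differ in this from the measured values, so the rates are not the recovery or the share of false calls in these data. The genes named are Retnla, all called genes, those that the study's text names for the genotypes and examples from gene lists, and some of these genes are not reported here. The members and lists were chosen with earlier results of these data known. Alternatives were other filters, floors, scalings and pseudocounts, each mouse left out, other fits and the methods' t-test.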

Additional observations from a re-analysis of the deposited data

Results flagged for a closer look

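For 9 genes the difference between RαTd/Td and Rα+/+ mice after PBS was other than that after IL-4c by the limma test of the change (adjusted p of 0.05 or less). The log2 difference after PBS minus that after IL-4c was 1.27 for Cxcr4, 1.22 for Jun, 1.19 for Atf3 and 0.94 for Batf, all higher in RαTd/Td after PBS. It was -1.93 for Fscn1 and -0.81 for Fpr1, both lower in RαTd/Td after PBS and mostly at the floor after IL-4c, and -0.97 for Eif2b4, which was at the floor in RαTd/Td mice after PBS. Dusp2 (1.84) did not rise above the floor in any mouse given PBS, so its value comes from the IL-4c-treated mice. Retnla (5.03) was at the floor in every RαTd/Td mouse, and its value reflects its level in Rα+/+ mice.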

How the results depend on the processing

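No paired analysis was possible because the numbers in the labels run on across groups, so no number is shared between genotypes. Genes called numbered 43 (36 higher, 7 lower) as reported. They numbered 18 with no filter (13 higher), 26 with median centring (17 higher), 23 with quantile normalization (15 higher), 24 with reference genes (18 higher) and 3 in the 4 PBS-treated mice alone (1 higher, 2 lower). The methods' t-test gave 2 after adjustment (1 higher, 1 lower) and 54 unadjusted (39 higher, 15 lower). By limma's unadjusted p there were 102 (86 higher, 16 lower). Those lower were 3 with every mouse above 30 and 4 with the common floor. With a mouse left out, the total ran from 3 to 73, those higher from 1 to 57 and those lower from 2 to 16. The median of all genes was 0 with no filter, centring or quantile normalization, 0.19 and 0.20 with all 11 or all 4 PBS-treated mice above 30, and 9.73e-04 to 0.17 with a mouse left out. Genes called for the change between treatments, 9 as reported, were 4 with a mean above 100, 2 and 3 with the floor filters over 11 and 4 mice, 16 with the common floor in either form, 18 with quantile normalization, 69 unadjusted and 3 to 34 with a mouse left out. The common floor with genes refiltered above it was chosen after seeing the data.

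MHC class II genes called, 5 as reported, were 1 with no filter, 3 with the common floor, quantile normalization or reference genes, 0 in PBS-treated mice alone or by the adjusted t-test, and 0 to 6 with a mouse left out. Their median was 1.65 with a mean above 100 or all 11 mice above 30, and 1.28 to 1.59 with a mouse left out. MHC class I and peptide loading genes called, 7 as reported, were 1 with no filter, 3 with median centring or quantile normalization, 2 with reference genes, 0 in PBS-treated mice alone or by the adjusted t-test, and 0 to 8 with a mouse left out. Their median was 0.60 with centring, 0.57 with quantile normalization and 0.65 to 0.83 with a mouse left out. Immediate early genes called, 4 as reported, were 2 with no filter, centring or quantile normalization, 0 in PBS-treated mice alone or by the adjusted t-test, and 0 to 4 with a mouse left out. Their median was 0.43 with quantile normalization and 0.39 to 0.85 with a mouse left out. Of all values recomputed for the 73 named genes, 1397 kept their side of the threshold, 400 fell short of it and 28 newly passed it. Another 18 changed sign without being called in either fit, and none changed sign while called. The causes were not tested. Precision is limited by 2 mice per group and, for genes under about 56.3 normalized counts, by the floor.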
